A study of Mus musculus with 10 samples.

Results

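Complex I (NADH:ubiquinone oxidoreductase) is the entry point of the mitochondrial respiratory chain. It takes electrons from NADH, passes them along a matrix arm of flavin and iron-sulfur clusters to ubiquinone, and pumps protons through a membrane arm. The reaction returns NAD+, the co-substrate of sirtuin deacetylases such as SIRT1. Of its core subunits, which carry the catalysis, 7 are encoded in the nucleus and 7 on mitochondrial DNA, and the nucleus also encodes many small accessory subunits that surround the core. The genes described here are every row of the expression table whose symbol is Ndufa, Ndufab, Ndufb, Ndufc, Ndufs or Ndufv followed by a number. They were 37 of the 20813 genes in the table, and all 37 passed the filter on low values (a mean of at least 10 over the samples), so none was set aside.

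The samples were leukemic spleens of sublethally irradiated mice that had been given Sirt1 conditional knockout T-ALL (T-cell acute lymphoblastic leukemia, a cancer of immature T cells) by vein. The strain is given as C57BL/6. The 5 samples labelled Sirt1-deleted came from mice given 3 mg of tamoxifen each, in corn oil by intraperitoneal injection, and the 5 controls from mice given corn oil alone. Leukemias of both groups are described as conditional knockouts, the Cre driver is not given in the sources used here, and genotype label and tamoxifen coincide, so they are compared together. Nothing states how many primary leukemias or separate animals stand behind the samples, so the p-values measure the spread between these samples. Values are the deposited normalized counts, log2 differences are labelled Sirt1-deleted minus control on log2(normalized count + 1), and a gene is said to be higher or lower where its adjusted p from limma over 15276 genes was under 0.05.

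Sirt1 mRNA itself did not differ: it lay between 1715 and 2097 in the labelled Sirt1-deleted samples and between 1735 and 1909 in controls (log2 difference 0.05, limma adjusted p = 0.568). Symbol totals do not tell a transcript that lacks deleted exons from a whole one, so this neither checks nor contradicts the label. Summed normalized counts were 33.7 to 34.5 M per sample, with an approximate depth of 31.4 to 38.5 M reads. T-lineage markers were high in every sample (summed level 149470 to 205343 over 12 genes), and 2 of the 12 were higher, among them Thy1 (log2 difference 0.56), and 3 lower, Cd5 (-0.61), Cd8b1 (-0.47) and Cd247 (-0.20). The shares over all tested genes, to set beside each marker count here, were 16.8% higher and 19.4% lower. The T-lineage counts were not far from those shares. In the labelled Sirt1-deleted samples 13 of 14 neutrophil markers were higher (summed level 28861 to 99812, against 9135 to 12610 in controls), as were 12 of 14 macrophage and monocyte markers (4936 to 7244, against 2842 to 3232). Erythroid, B cell and platelet lists had no gene higher or lower, 2 of 6 tested stromal and endothelial markers were lower, and no tested marker was at 0 in every sample. The part of these other cells in the complex I values was not tested, and in bulk RNA fewer cells of a type and less RNA per cell cannot be told apart.

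Most complex I subunit genes were modestly higher in the labelled Sirt1-deleted samples. Of the 37, 22 were higher, 2 were lower (Ndufs8 and Ndufv1) and 13 did not pass. Both the 37 and the 22 include Ndufa4, which has since been assigned to complex IV. Over all tested genes 36.1% were called, 16.8% higher and 19.4% lower, against 59.5% higher and 5.41% lower among the subunits. Their median log2 difference was 0.18, a fold of 1.13, where the median of all tested genes was -1.42e-04. Differences ran from -0.19 to 0.53, with 30 positive and 7 negative. For 20 subunits every labelled Sirt1-deleted value exceeded every control value, and for 1, Ndufv1, the reverse held, against 11.1% and 12.9% of tested genes. Together the 37 genes held 0.336 to 0.361% of each labelled Sirt1-deleted sample's total and 0.288 to 0.317% of each control's. The count changed with a joint correction for length and GC content. With transcript length 10 subunits were higher and 4 lower, against 12% and 25.3% of tested genes. Their median was -0.00606, against -0.0704 over all tested genes. With coding length 13 were higher and 4 lower, against 12.4% and 24.8% of tested genes. The median was then 0.0362, against -0.0602 over all tested genes. Under upper-quartile rescaling 27 were higher and none lower (20.7% and 14.9% of tested genes), and 58.2% of all called genes were higher, against 46.4% as deposited. Under quantile normalization 25 were higher and none lower (16.2% and 18.0% of tested genes).

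**Figure D1:**
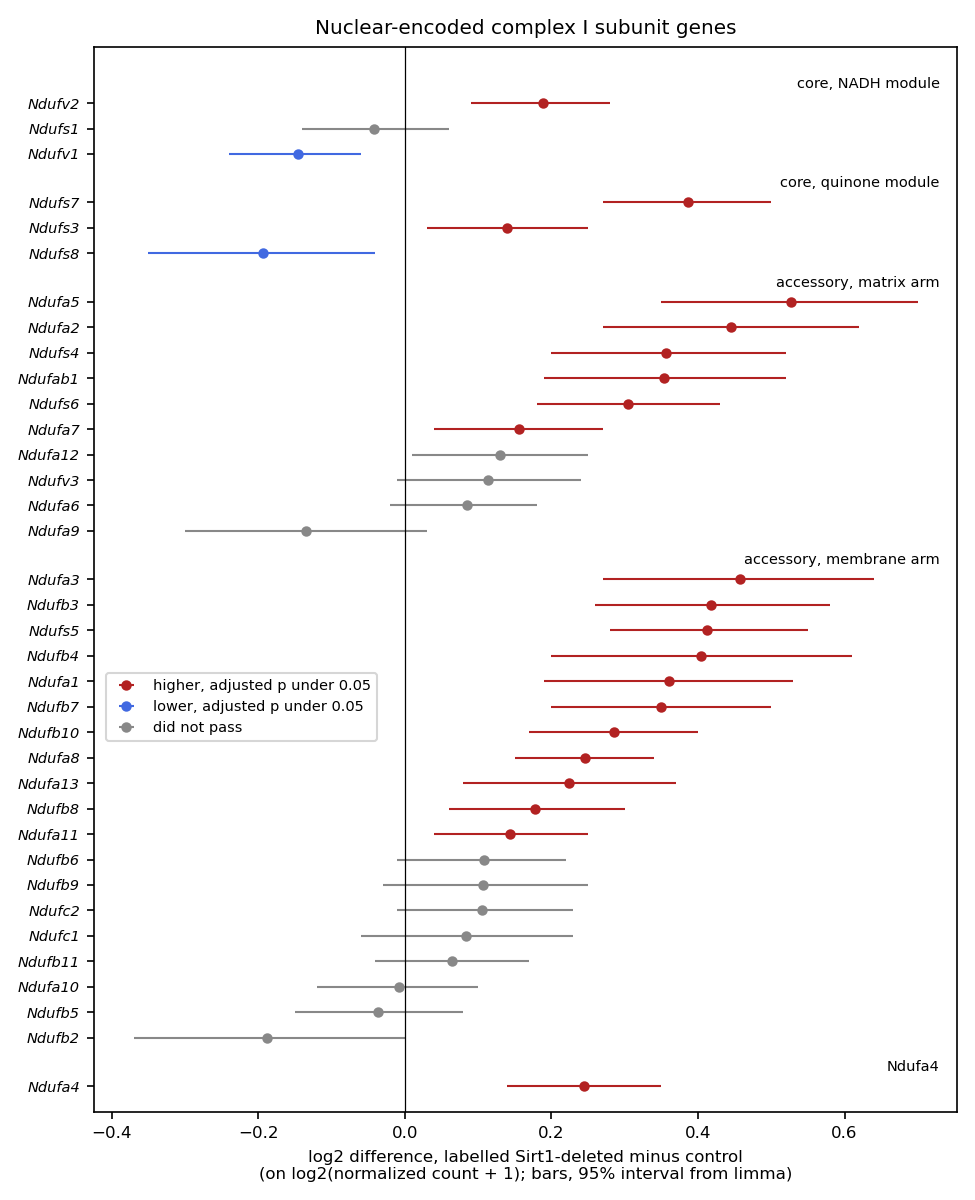
Each point is the log2 difference of a complex I subunit gene (x axis, labelled Sirt1-deleted minus control, n = 5 each) with its 95% interval from limma, grouped by position in the complex and coloured by call. The genes called higher reach from 0.14 (Ndufs3 and Ndufa11) to 0.53 (Ndufa5), and the 2 called lower, Ndufv1 and Ndufs8, are both core subunits.

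The NADH module at the tip of the matrix arm has 3 core subunits, and these went different ways: Ndufv2 was higher, Ndufv1 lower and Ndufs1 did not pass. Ndufv1 encodes the flavoprotein that binds NADH and FMN. Its normalized counts were 3938, 4075, 4213, 4257 and 4000 in labelled Sirt1-deleted replicates 7, 8, 10, 11 and 12, and 4572, 4515, 4701, 4383 and 4485 in control replicates 2 to 6. Every labelled Sirt1-deleted value was under every control value, with the smallest margin at replicate 11. The mean was 4096 ± 136 against 4531 ± 117 (SD, n = 5 each), a log2 difference of -0.15 (SE 0.04, limma adjusted p = 0.0164). The call held without any 1 sample and was lost under upper-quartile rescaling and quantile normalization.

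Ndufv2 encodes the iron-sulfur partner of Ndufv1, and the pair form the flavoprotein fragment of the enzyme. Ndufv2 was at 5868, 5580, 5573, 5626 and 5814 in the labelled Sirt1-deleted samples (replicates 7, 8, 10, 11 and 12, the order used from here on) and at 4655, 4920, 5121, 5171 and 5127 in controls (replicates 2 to 6). The groups did not overlap, and the mean of 5692 ± 139 against 4999 ± 215 (SD, n = 5 each) gave a log2 difference of 0.19 (SE 0.04, limma adjusted p = 0.006). With the transcript length and GC correction the difference of Ndufv2 was 0.0302 and did not pass, and its call was also lost with coding length. The ratio of Ndufv1 to Ndufv2 was therefore 0.67 to 0.76 in the labelled Sirt1-deleted samples and 0.85 to 0.98 in controls, a pair chosen after their values were seen. Ndufs1, the largest core subunit and a carrier of several iron-sulfur clusters, was at 4391, 4169, 4761, 4715 and 4667 against 4768, 4581, 4668, 4663 and 4673. Its controls lay close together, the groups overlapped, and labelled Sirt1-deleted replicates 7 and 8 were lowest (log2 difference -0.04, 95% interval -0.14 to 0.06).

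The quinone module, which hands electrons to ubiquinone, was represented by Ndufs7 and Ndufs3, which were higher, and Ndufs8, which was lower. Ndufs7 carries the last iron-sulfur cluster before ubiquinone. It was at 3585, 3360, 3284, 3365 and 3652 in the labelled Sirt1-deleted samples and at 2484, 2497, 2781, 2636 and 2801 in controls. The groups stood well apart, at 3449 ± 160 against 2640 ± 150 (SD, n = 5 each), and this was the smallest adjusted p among the subunits (log2 difference 0.39, SE 0.05, limma adjusted p = 5.35e-04).

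Ndufs3, which scaffolds the module, had a smaller difference: 1533, 1502, 1442, 1540 and 1577 against 1342, 1328, 1463, 1359 and 1407. Replicate 10 fell inside the control range, under control replicate 4 (log2 difference 0.14, SE 0.05, limma adjusted p = 0.0464). That call was lost in 8 of the 10 fits without 1 sample, all but those without labelled Sirt1-deleted replicate 10 and control replicate 4. Differences were 0.125 to 0.16 over all 10 fits. With all samples the Ndufs3 call was also lost with a minimum mean of 1, with no filter and under the rank-sum test. It was lost too after both length and GC corrections (-0.0123 with transcript length, 0.0301 with coding length). Ndufs8, which carries a pair of iron-sulfur clusters and neighbours Ndufs7, went the other way, at 1967, 2166, 2178, 2289 and 1754 against 2434, 2342, 2428, 2399 and 2196. Replicates 7 and 12 were clearly lowest, while replicate 11 overlapped control replicate 6. The mean was 2071 ± 212 against 2360 ± 98.4 (SD, n = 5 each), with a log2 difference of -0.19 (SE 0.07, limma adjusted p = 0.0468). The call of Ndufs8 was lost in 7 of 10 fits without 1 sample, those without labelled Sirt1-deleted replicates 7, 8 or 12 or control replicates 2, 3, 4 or 5, with differences of -0.231 to -0.136 over all 10. It was also lost in 6 of the 10 planned settings with all samples: limma without trend, the rank-sum test, quantile normalization, upper-quartile rescaling, a minimum mean of 1 and no filter. The ratio of Ndufs8 to Ndufs7 was 0.48 to 0.68 in the labelled Sirt1-deleted samples and 0.78 to 0.98 in controls, again a pair chosen after their values were seen.

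**Figure D2:**
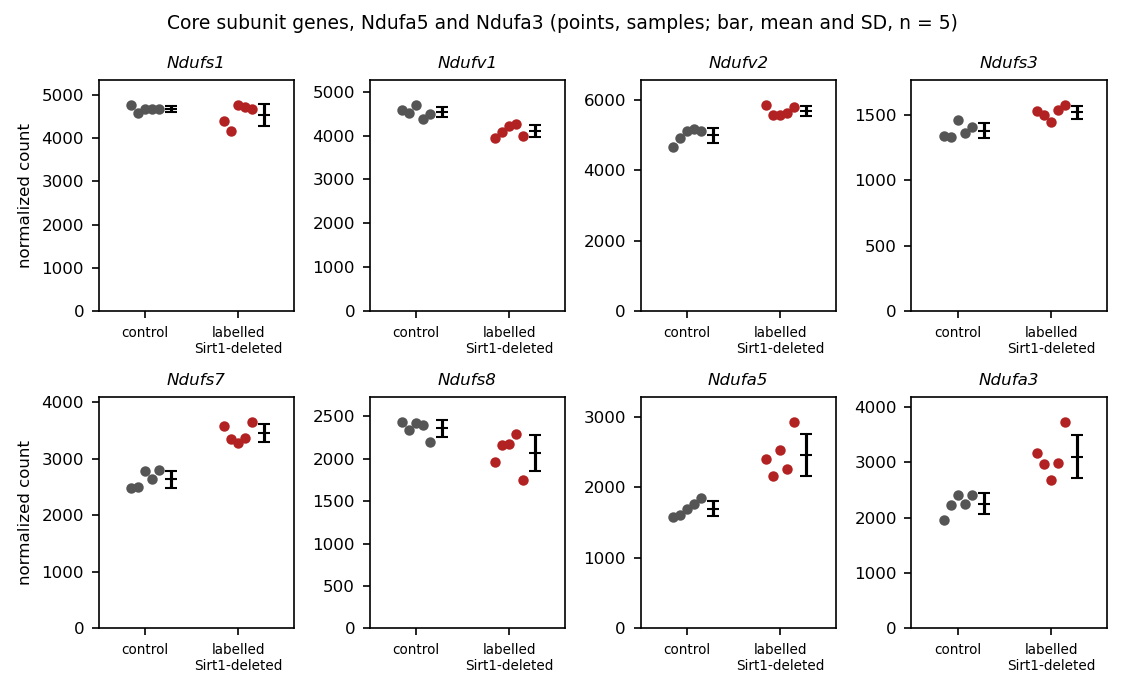
Normalized counts (y axis, from 0) of core subunit genes and of Ndufa5 and Ndufa3 in each control and labelled Sirt1-deleted sample, in order of replicate number, with the mean and SD (n = 5). Ndufs7, Ndufv2, Ndufa5 and Ndufa3 separate upward, Ndufv1 separates downward, and Ndufs1, Ndufs3 and Ndufs8 overlap between groups.

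The accessory subunits of the matrix arm numbered 10, of which 6 were higher, none lower and 4 did not pass. Ndufa5, which packs against the quinone module, had the largest rise of all subunits. It was at 2402, 2166, 2534, 2254 and 2925 in the labelled Sirt1-deleted samples and at 1582, 1603, 1695, 1758 and 1853 in controls. The lowest labelled Sirt1-deleted value exceeded the highest control, and the means were 2456 ± 298 and 1698 ± 112 (SD, n = 5 each). The log2 difference was 0.53 (SE 0.08, limma adjusted p = 7.99e-04), a fold of 1.44. Ndufa2, a small subunit with a thioredoxin-like fold, was at 2899, 2746, 2499, 2621 and 3259 against 1780, 2090, 2221, 2017 and 2182. It separated the groups in the same manner, with control replicate 2 lowest and labelled Sirt1-deleted replicate 12 highest (log2 difference 0.44, SE 0.08, limma adjusted p = 0.00177).

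Others of the matrix arm were higher by less. Ndufs4, whose loss in mice gives a Leigh-like encephalopathy, ranged from 2380 to 2859 against 1713 to 2214 (log2 difference 0.36). Ndufab1, the mitochondrial acyl carrier protein that also serves lipoic acid synthesis, ranged from 4346 to 5080 against 3027 to 4128 (0.35). Ndufs6, a zinc-binding subunit of the NADH module, ranged from 2539 to 2911 against 2028 to 2394 (0.30). These 3 did not overlap between groups and kept their calls without any 1 sample. Ndufs6 did not pass with the transcript length and GC correction. Ndufa7 ranged from 1695 to 1865 against 1466 to 1691 (log2 difference 0.16), a gap of a few counts, and its call was lost in 8 of 10 fits without 1 sample, all but those without labelled Sirt1-deleted replicate 10 and control replicate 4. Log2 differences of Ndufa12 (0.13), Ndufv3 (0.11) and Ndufa6 (0.08) did not pass. Ndufa9, which sits by the quinone tunnel where the arms meet, was at 3144, 3526, 3865, 3896 and 2868 against 3648, 3781, 3772, 3908 and 3764. Its controls were tight while the labelled Sirt1-deleted samples scattered, with replicates 7 and 12 low and replicates 10 and 11 at control level (log2 difference -0.14, SE 0.08, limma adjusted p = 0.193).

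The accessory subunits of the membrane arm numbered 19, of which 11 were higher, none lower and 8 did not pass. Ndufa3, a small single-pass subunit, was at 3163, 2966, 2684, 2984 and 3729 in the labelled Sirt1-deleted samples and at 1962, 2237, 2418, 2250 and 2403 in controls, with no overlap (log2 difference 0.46, SE 0.08, limma adjusted p = 0.00212). Ndufb3, of the distal membrane arm, was at 3018, 2727, 2730, 2821 and 3437 against 1965, 2178, 2311, 2151 and 2404, again apart and again highest in replicate 12 (0.42, SE 0.07, limma adjusted p = 0.00176). Ndufs5, which lies on the intermembrane-space face despite its name, was at 2485, 2407, 2390, 2520 and 2844 against 1704, 1902, 1913, 1940 and 2039. Replicate 12 stood above the other labelled Sirt1-deleted samples, all of which exceeded every control (0.41, SE 0.06, limma adjusted p = 8.35e-04).

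Among the rest of the membrane arm, Ndufb4 ranged from 705 to 1024 against 577 to 690 (log2 difference 0.40), Ndufa1 from 1536 to 2023 against 1218 to 1471 (0.36) and Ndufb7 from 3116 to 3974 against 2421 to 2915 (0.35). Ndufb10 ranged from 4210 to 4595 against 3294 to 3943 (0.29) and Ndufa8 from 3474 to 3673 against 2836 to 3175 (0.25). None of these 5 overlapped between groups, and each kept its call without any 1 sample. With the transcript length and GC correction Ndufa1, Ndufb10 and Ndufa8 did not pass, and with coding length Ndufa1 and Ndufa8 did not. Ndufb7, Ndufb10 and Ndufa8, like Ndufs5, are intermembrane-space subunits with internal disulfide bonds. Ndufa13 (GRIM-19, also described as a partner of STAT3) ranged from 2498 to 3047 against 2186 to 2638 (0.22) with overlap. Its call was lost without labelled Sirt1-deleted replicate 7 or control replicate 2, under the rank-sum test and with both length and GC corrections. The calls of Ndufb8 (0.18) and Ndufa11 (0.14) were lost in 4 and 6 of the 10 fits without 1 sample. Both were lost without labelled Sirt1-deleted replicate 7 and control replicates 2 and 3, and Ndufb8 also without labelled Sirt1-deleted replicate 8. Ndufa11 was also lost without labelled Sirt1-deleted replicates 11 and 12 and control replicate 6. With all samples Ndufa11 lost its call with a minimum mean of 1 and with no filter. Log2 differences of Ndufb6, Ndufb9 and Ndufc2 (0.11 each), Ndufc1 (0.08) and Ndufb11 (0.06) did not pass.

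Of the membrane arm, 3 subunits had negative differences, none of which passed. Ndufb2 was at 1088, 1087, 1207, 1319 and 909 against 1288, 1208, 1287, 1237 and 1326. Replicate 12 was far below all controls and replicate 11 was within them (log2 difference -0.19, SE 0.09, limma adjusted p = 0.106), and without replicate 11 the difference passed. Ndufb5 was at 3191, 3008, 3438, 3283 and 2894 against 3310, 3190, 3179, 3168 and 3350, with replicate 10 highest of all samples and replicate 12 lowest (-0.04). Ndufa10, a subunit with a nucleoside-kinase fold, was at 4500, 4374, 4890, 4959 and 4444 against 4784, 4360, 4749, 4684 and 4692 (-0.01). These values interleave, and the sign of Ndufb5, Ndufa10 and Ndufs1 turned positive under upper-quartile rescaling and quantile normalization. Ndufa4, named as a complex I subunit but since assigned to complex IV (cytochrome c oxidase), ranged from 6408 to 6989 against 5143 to 5966. It was higher by a log2 difference of 0.24 and is counted in the totals over all subunits, but in neither arm.

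**Figure D3:**
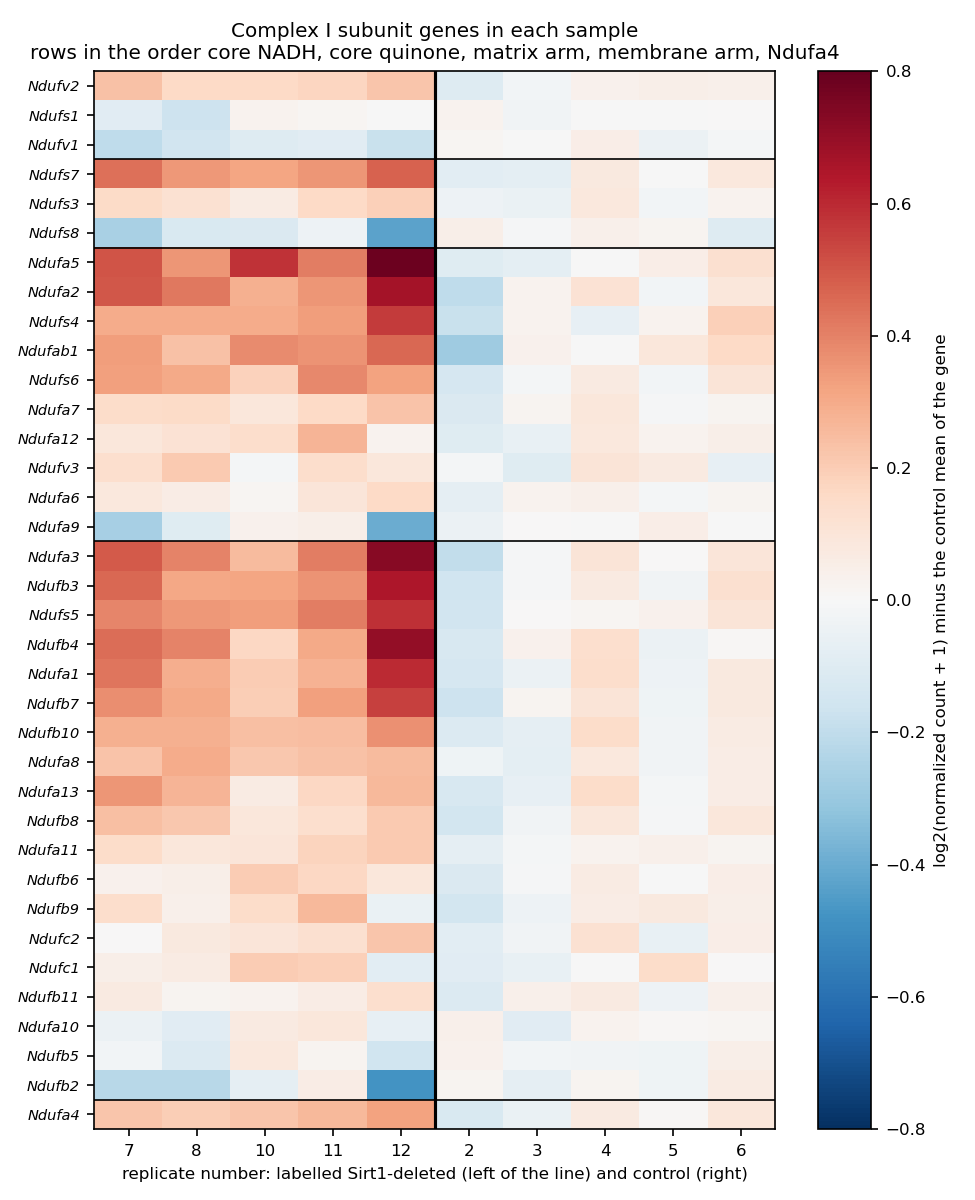
Colour gives log2(normalized count + 1) of each subunit gene in each sample minus the gene's control mean, with rows ordered by position in the complex and columns by group and replicate number. Labelled Sirt1-deleted replicate 12 is the darkest column in both directions, with the highest value of all 10 samples in Ndufa5, Ndufa3 and Ndufb3 and the lowest in Ndufb2, Ndufa9 and Ndufs8.

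Among the labelled Sirt1-deleted samples the strength of the pattern varied, in both directions. Replicate 12 had the highest value of all 10 samples in 17 of the 22 subunits called higher, and the lowest in 4 of the 7 with a negative difference. Replicate 10 was the lowest of its group in 16 of the 22, and control replicate 2 was the lowest control in 20 of them. The median over all subunits, relative to the control mean, was nonetheless alike, at 0.22, 0.18, 0.16, 0.18 and 0.22 on the log2 scale, while controls were at -0.10, -0.02, 0.07, -0.00 and 0.05. Without replicate 12, 19 subunits were higher and 1 lower. Over the 10 fits without 1 sample 17 to 22 were higher, with 17 without labelled Sirt1-deleted replicate 7 and 17 without control replicate 2, and 17 subunits kept their higher call in all 10.

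Promoters were read for what the members share in sequence. NRF-1 and YY1 are transcription factors known to act at promoters of nuclear genes for mitochondrial proteins. RefSeq windows (GRCm38.p6, 250 bases before to 50 after an annotated start) were matched for 33 of the 37 genes. The NRF-1 letters, GCGC and again GCGC with any 2 bases between, which read the same on both strands, were in a window of 9 of the 33 (27.3%), against 6.23% of 32851 windows of the same length. A gene can have several windows, so the shares are not of the same unit. The windows of all genes were also not matched to the subunits for expression or GC content. The sequences below, 250 bases before a start and 5′ to 3′ on the gene's strand, are from the subunits with the largest rise that hold those letters and from both subunits that were lower, and capitals mark NRF-1 letters in Ndufa5 and Ndufs5 and an E-box in Ndufv1.
Ndufa5, chr6:24527691-24527940, minus strand: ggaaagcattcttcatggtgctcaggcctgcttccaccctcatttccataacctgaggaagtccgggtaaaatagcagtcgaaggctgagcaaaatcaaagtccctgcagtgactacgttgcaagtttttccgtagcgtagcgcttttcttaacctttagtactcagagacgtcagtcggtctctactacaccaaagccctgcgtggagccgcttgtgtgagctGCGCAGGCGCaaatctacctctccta
Ndufs5, chr4:123718187-123718436, minus strand: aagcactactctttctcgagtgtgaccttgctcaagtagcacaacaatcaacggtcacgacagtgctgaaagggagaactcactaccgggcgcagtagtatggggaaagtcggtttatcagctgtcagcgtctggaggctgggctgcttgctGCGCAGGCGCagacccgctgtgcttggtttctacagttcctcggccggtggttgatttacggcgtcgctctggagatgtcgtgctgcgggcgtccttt
Ndufs8, chr19:3912775-3913024, minus strand: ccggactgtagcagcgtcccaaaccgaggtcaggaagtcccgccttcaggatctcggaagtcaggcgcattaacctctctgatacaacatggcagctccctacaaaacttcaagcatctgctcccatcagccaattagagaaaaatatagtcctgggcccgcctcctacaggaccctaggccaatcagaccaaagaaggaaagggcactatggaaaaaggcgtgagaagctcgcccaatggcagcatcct
Ndufv1, chr19:4012756-4013005, minus strand: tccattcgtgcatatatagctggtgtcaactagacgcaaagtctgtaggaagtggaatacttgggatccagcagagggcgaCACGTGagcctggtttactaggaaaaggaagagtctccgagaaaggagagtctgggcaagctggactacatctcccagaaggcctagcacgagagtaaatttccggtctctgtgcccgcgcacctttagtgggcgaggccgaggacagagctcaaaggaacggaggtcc

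The first base of the NRF-1 letters lies at -26 in this Ndufa5 window and at -98 in Ndufs5, and Ndufa5 and Ndufs5 carry the same 10 letters. In another Ndufa5 window, from a different annotated start and not shown, the same letters lie at -190. Of the subunits with a window, 8 of 20 called higher held the letters, 0 of 2 called lower and 1 of 11 that did not pass. The E-box letters CACGTG, which also read the same on both strands, were in 2 of 33 (6.06%, against 7.15% of windows): Ndufv1, at -169, and Ndufa7. The ETS letters CCGGAAG were in 4 of 33 on either strand (12.1%, against 8.86%), among them Ndufs8, where they start at 16 and so lie outside the sequence shown. A match is a run of letters, not a bound site, and the numbers per class are small.

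The YY1 letters AAGATGGC, searched on both strands, were in 7 of 33 (21.2%, against 2.75% of windows). Each match was on the gene's own strand, 23 to 39 bases after the start. The letters contain ATG, the letters of a start codon. Whether each match is the start of the coding sequence, and how far this enters the shares, was not tested. The 24 bases around each are shown because the letters recur at nearby positions, and capitals mark them.
Ndufa3, chr7:3617387-3617410, plus strand: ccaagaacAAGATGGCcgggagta
Ndufa9, chr6:126849100-126849123, minus strand: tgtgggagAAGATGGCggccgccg
Ndufb8, chr19:44555393-44555416, minus strand: gcggagaaggtgAAGATGGCtgcc
Ndufc1, chr3:51408918-51408941, minus strand: tgcggaacAAGATGGCgccgtccg
Ndufs4, chr13:114388045-114388068, minus strand: gcctacaggAAGATGGCggcggtc
Ndufs6, chr13:73328434-73328457, minus strand: tcaccggcAAGATGGCggcggtgc
Ndufs7, chr10:80249465-80249488, plus strand: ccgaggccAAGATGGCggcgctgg

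The letters were present in 5 of 20 subunits called higher, 0 of 2 lower and 2 of 11 that did not pass, one of them Ndufa9 with its negative difference. Ndufs6 held both NRF-1 and YY1 letters. Of the factors, chosen after values were seen, Nrf1 did not differ (2673 to 3031 against 2682 to 2921, log2 difference -0.01), whereas Gabpa, an ETS factor of mitochondrial genes, and Yy1 were lower (2349 to 3251 against 3464 to 4249, -0.41, and 5478 to 7073 against 7905 to 8567, -0.37).

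Position in the genome was also read, for a pair chosen after their values were seen. Both calls of the pair were lost under upper-quartile rescaling and quantile normalization. Ndufs8 (chr19:3908863-3912774) and Ndufv1 (chr19:4007384-4012806), both on the minus strand in GRCm38, are the only subunits called lower and lie 94609 bases apart. Of the 6 tested genes between them 2 were higher, Unc93b1 (log2 difference 0.61) and Doc2g (0.71), and 0 were lower. Over all tested genes the shares were 16.8% and 19.4%. The largest riser, Ndufa5, lies at chr6:24518666-24528013 and Ndufs7 at chr10:80249121-80256794.

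Subunit length went with the difference. Most subunits are small proteins, with a median coding length of 447 bases against 1350 for the 14050 tested coding genes. Across the 37 genes the Spearman correlation of the log2 difference with coding length was -0.45, and across all tested coding genes it was -0.19. With GC content it was 0.05 and 0.03. These correlations are descriptions across genes measured in the same 10 samples. Of the 15 subunits with under 400 coding bases 10 were higher (66.7%, median 0.30), where 33.5% of the 840 other genes of that size were higher (median 0.17) and 4.76% lower. From 400 to under 600 bases 8 of 12 were higher (median 0.20) and none lower, against 27.6% and 9.72% of 1049 others (0.09). From 600 to under 1200 bases 3 of 6 were higher and 1 lower (0.07), against 18.6% and 15.3% of 4209 others (0.03). From 1200 bases on, 1 of 4 was higher and 1 lower (0.04), against 12.9% and 26.6% of 7915 others (-0.08). Short genes in general were thus higher more often than long ones, and in each length class the subunits' median lay above that of the other genes.

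**Figure D4:**
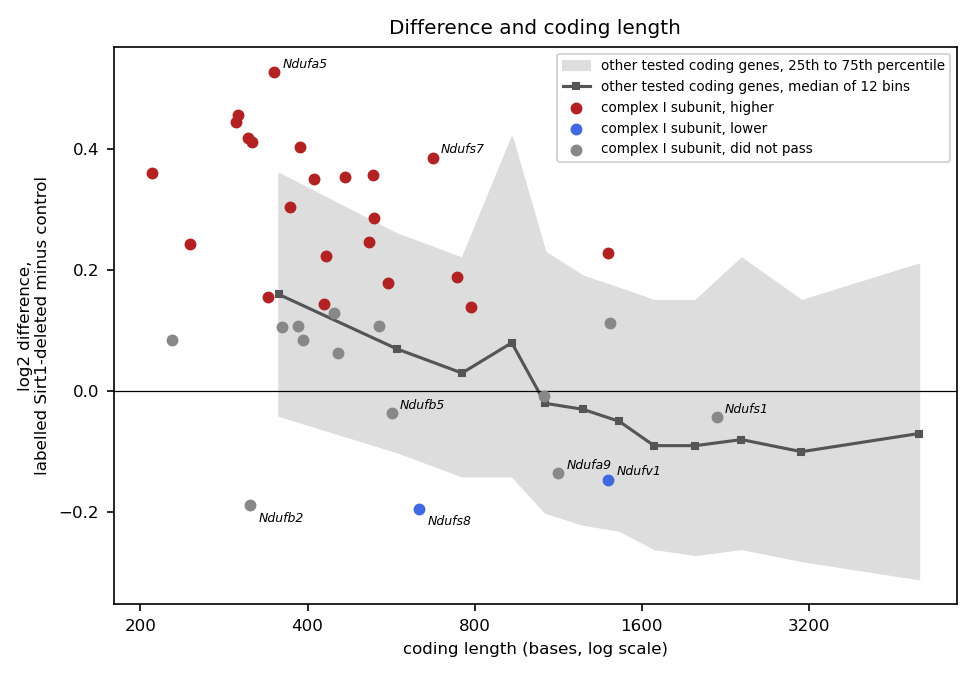
Log2 difference (y axis) against coding length in bases (log x axis) for the 37 subunit genes, with the median (line) and the 25th to 75th percentile (grey) of the other tested coding genes in 12 length bins. Short subunits such as Ndufa5 lie above the band, and Ndufb2 and Ndufs8 lie below the median line at their lengths.

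After correction for transcript length and GC content, 10 subunits remained higher: Ndufa5, Ndufa3, Ndufa2, Ndufb3, Ndufs5, Ndufb4, Ndufs7, Ndufs4, Ndufab1 and Ndufb7. The background was 12% higher and 25.3% lower, and all genes shifted to a median of -0.0704. The 4 called lower were Ndufv1, Ndufs8, Ndufa9 and Ndufb5. With coding length in place of transcript length 13 were higher, the same 10 with Ndufs6 and Ndufb10 among the rest, and the 4 lower were Ndufv1, Ndufs8, Ndufb2 and Ndufb5 (background 12.4% and 24.8%). The absence of lower accessory subunits therefore did not hold after either correction. Some counts can be shared with other loci: 14 of the 37 genes have a near-identical copy in the transcript set (at least 90% identity over 200 bases), 3 overlap an exon of another gene on the same strand, and 14 one on the opposite strand, where strand use in counting is not given in the sources used here. Gm15920, a copy of Ndufa12, was at 666 to 794 against 468 to 619 and was higher (log2 difference 0.41), and Ndufb4c, a copy of Ndufb4, was at 1056 to 1197 against 985 to 1061 and did not pass (0.14). Of the 14 genes with a copy, 6 have one in the table, and the rest could not be compared with theirs. Ndufb2 also shares exon sequence with a same-strand gene, Gm42420.

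The 7 core subunits encoded on mitochondrial DNA were compared beside the nuclear ones. Of these 6 were higher and none lower, against 16.8% and 19.4% of all tested genes, with a median log2 difference of 0.44. The largest were mt-Nd2 (52256 to 69622 against 35691 to 45786, 0.49) and mt-Nd1 (115456 to 156162 against 82004 to 102685, 0.48), proton-pumping and quinone-side membrane subunits. The smallest was mt-Nd5 (0.19), which did not pass. The nuclear core had 4 of 7 higher and 2 lower, with a median of 0.14. Whether the nuclear and mitochondrial sets differ was not tested.

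Assembly factors build the complex and are not part of it. Of 19 tested, 5 were higher (26.3%, against 16.8% of all tested genes) and 1 lower (5.26%, against 19.4%), with a median log2 difference of -0.00. Whether they differ from the subunits was not tested. Ndufaf8, a partner of the Ndufs7-modifying factor Ndufaf5, was at 681 to 959 against 497 to 628 (0.49). Dmac1, Ndufaf4 and Ndufaf2 (0.28 each) and Timmdc1 (0.20), were also higher, and they are named because they passed, after their values were seen. Tmem186, of the membrane-arm assembly complex, was at 1356 to 1588 against 1540 to 1777 and was lower (-0.17). Nubpl, an iron-sulfur assembly factor, was at 181 to 281 against 245 to 335 and did not pass (-0.31), and neither did Ndufaf1 (-0.12).

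The subunits of the other complexes gave a setting for these values. The lists, assembly factors among them, were not matched for coding length, which went with the difference across all tested coding genes. How far length enters their medians was not tested. The shares over all tested genes, to set beside each count, were 16.8% higher and 19.4% lower. Complex II (succinate dehydrogenase), which also feeds ubiquinone, had 1 of 4 higher, Sdhc (0.12), and a median of 0.01. Complex III had 5 of 9 higher (median 0.20), led by Uqcrq (0.53) and Uqcrh (0.33), while its core proteins Uqcrc1 (-0.23) and Uqcrc2 (-0.15) did not pass. Complex IV had 9 of 10 higher (median 0.27), led by Cox7c (0.39) and Cox5a (0.35). Complex V (ATP synthase) had 9 of 16 higher (median 0.16), led by Atp5j2 and Atp5k (0.37 each), and 1 lower, the catalytic-head subunit Atp5a1 (14416 to 19600 against 20075 to 21626, -0.28). Its neighbour Atp5c1 did not pass (-0.26). The 7 other enzymes and carriers that deliver electrons to ubiquinone or act on NADH had a median of -0.02, with 1 higher (14.3%) and 2 lower (28.6%). Sqor, the sulfide oxidase, was at 65.9 to 197 against 28.4 to 51.2 (log2 difference 1.55), a low level. Etfdh, which links fatty acid oxidation to ubiquinone, was at 911 to 1338 against 1694 to 2201 and was lower (-0.75), as was its electron donor Etfa (3382 to 4398 against 4415 to 4634, -0.19).

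**Figure D5:**
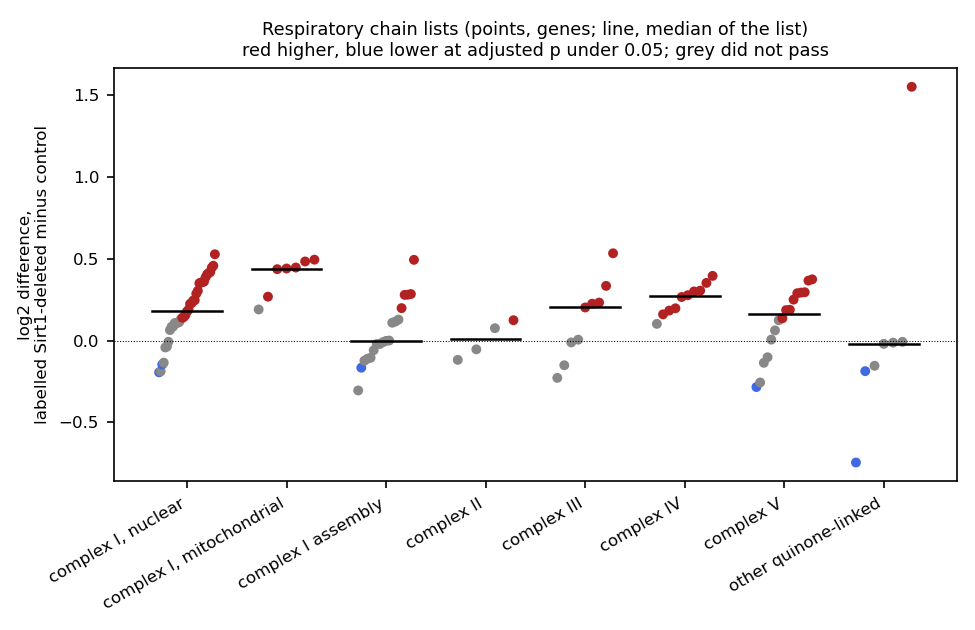
Each point is the log2 difference (y axis) of a gene of the named list, the line is the median of the list, and colour gives the call. The median is 0.18 for nuclear complex I subunits (with Ndufa4 among them), 0.44 for the mitochondrial ones, -0.00 for assembly factors and 0.01 for complex II. The lists are not matched for coding length.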

How the data were processed

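RNA-seq was analysed for 10 leukemic spleens, 5 per genotype label. Red cells were lysed and strand-specific libraries made, per the labels' protocols. The deposited table gives normalized counts per gene symbol, a signal scaled by the authors, with kallisto 0.44.0, DESeq and mm10 named in the submitters' processing notes; annotation and gene filters are not given in the sources used here. At low values 68.0 to 74.0% lay within 0.1 of a whole multiple of the sample's commonest step, so reads were not recovered and no count model was run. Depth was approximated from that step.

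log2(value + 1) was tested with limma 3.58.1 in R 4.3.3 (group only, empirical Bayes with trend) on 15276 genes with a mean of at least 10, with Benjamini-Hochberg adjustment at 0.05. The script was tested on simulated data. Alternatives were other pseudocounts, filters, scalings and tests, the omission of each sample, and corrections for length and GC content by splines with 5 degrees of freedom, added after seeing the data. Lengths, overlaps and copies came from GENCODE M21 (GRCm38, all 20813 symbols matched), promoters from RefSeq GRCm38.p6.

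Named with values per sample are core subunits (1 member, counted in all totals, is not reported by itself here), the 5 largest rises, both falls and every negative difference; of other lists, the 2 largest differences in each direction and any call against the list. The members and lists were chosen with earlier results of these data known, and the promoter factors after values were seen.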

Additional observations from a re-analysis of the deposited data

Results flagged for a closer look

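In 76 groups of 5 samples examined (each subunit and Sirt1, in each group), 3 samples stood apart from the rest of their group, where chance gives about 1 in 20, or 3.80. Ndufs4 in labelled Sirt1-deleted replicate 12 was at 2859, above 2380 to 2441 in the other 4 samples. Ndufs5 in the same replicate was at 2844, above 2390 to 2520. Ndufa10 in control replicate 3 was at 4360, under 4684 to 4784 in the others. The calls of Ndufs4 and Ndufs5 held without replicate 12.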

How the results depend on the processing

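The number of subunits called higher was 20 to 27 under the 10 planned settings with all samples and 17 to 22 without 1 sample, and 17 subunits kept their call throughout. The number called lower was 1 with a minimum mean of 1, no filter, limma without trend or the rank-sum test, 0 under upper-quartile rescaling or quantile normalization, and 1 to 3 without 1 sample. The subunits' median was 0.237 under upper-quartile rescaling (all genes 0.0584), 0.231 under quantile normalization and 0.142 to 0.198 without 1 sample. Upper-quartile rescaling and quantile normalization turned Ndufa10 (0.0517 and 0.0326), Ndufb5 (0.0224 and 0.0216) and Ndufs1 (0.0168 and 0.00138) positive, and without 1 sample Ndufa10 ranged from -0.0325 to 0.0127, with 0.00704, 0.00254, 0.0127 and 0.00260 without labelled Sirt1-deleted replicates 12, 7 and 8 and control replicate 2. Assembly factors passing, 6 as reported, numbered 4 to 7 in every alternative.

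The corrections for length and GC content were chosen after seeing the data. They moved the median of all tested genes to -0.0704 with transcript length and to -0.0602 with coding length. The signs below are therefore relative to a zero that moved. With transcript length 10 subunits were higher and 4 lower, the median was -0.00606, and 12 differences turned negative: Ndufa11 -0.0539, Ndufa12 -0.0573, Ndufa6 -0.0989, Ndufa7 -0.0386, Ndufb11 -0.0945, Ndufb6 -0.0845, Ndufb8 -0.00638, Ndufb9 -0.0768, Ndufc1 -0.0720, Ndufc2 -0.0835, Ndufs3 -0.0123 and Ndufv3 -0.00606. With coding length 13 were higher and 4 lower, the median was 0.0362, and 9 turned negative: Ndufa11 -0.0397, Ndufa12 -0.0202, Ndufa6 -0.0747, Ndufa7 -0.0259, Ndufb11 -0.0817, Ndufb6 -0.0596, Ndufb9 -0.0449, Ndufc1 -0.0952 and Ndufc2 -0.0657. The cause was not tested. No paired analysis was possible because control samples are numbered 2 to 6 and labelled Sirt1-deleted samples 7 to 12. Depth per gene is not known exactly, so no counting intervals are given.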
